A study of Homo sapiens and Mus musculus with 213 samples.

Results

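The genes of proximal chromosome 13q are the genes of chromosome 13 that start before 40 Mb on hg38, next to the centromere, and that had a mean normalised read count of at least 10 over the 9 RNA-seq libraries. They were chosen by position and by this mean count, with RFC3 and symbols beginning with RPL, RPS, COL or GABR left out. The segment was proposed with earlier results of these data known, so that its level as a group is described and not tested. Of 414 segment genes listed in the files, 270 were under the minimum, 8 were left out by symbol and 136 remained, out of 20884 genes tested. They comprised 83 protein-coding genes, 39 pseudogenes and 14 lncRNA and other genes. A total of 131 members had a mean of at least 10 in each line, and the other 5 were under it in 1 line, 4 in MUT and 1 in SWP. At the lower edge of the rule, LINC00412 had a mean of 10.4 and the protein-coding TRPC4 10.9, while LINC02340 with 9.94 stayed outside.

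The libraries came from HEK293T, a human embryonic kidney line that carries adenoviral sequence and SV40 large T antigen. A G-quadruplex (G4) is a DNA structure of stacked guanine quartets, formed by nearby runs of guanines. The 3 lines compared had 3 poly(A)-selected libraries each. WT carried the natural G4 motif upstream of the MYC promoter P1. MUT carried substitutions in the G-runs of that motif that prevent folding, and SWP carried a different G4 motif, from the promoter of another gene, in its place. Both edits were introduced by CRISPR-Cas9 and sorted as single cells into homozygous clonal lines, and the labels do not say which clone gave which library, so that the libraries of an edited line may come from 1 clone. The sample titles number the 3 libraries of a line as Bio1 to Bio3, but do not say whether these were separate cultures, so that p-values measure the spread between these libraries only.

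Chromosome 13 is acrocentric, and its long arm begins with a stretch rich in pseudogenes, including copies of genes that lie on other chromosomes. The genes interspersed with them have no common function. They encode chaperones, chromatin proteins, subunits of the RNA exosome and of the kinetochore, connexins, mitochondrial enzymes and growth factors. Most processed pseudogenes arose by reverse transcription of the mRNA of a parent gene and insertion elsewhere, so that their reads can resemble those of the parent.

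The libraries held 65024354 to 98497026 reads on genes, and mitochondrial genes took 0.879% to 1.34% of them. MYC had 20020, 28396 and 21580 normalised counts in WT, 10693, 11176 and 12400 in MUT, and 14480, 24743 and 25245 in SWP. The MUT libraries lay below every WT library, at -1.02 on the log2 scale (SE 0.19, limma adjusted p = 0.00182), and the SWP libraries overlapped those of WT. All 8 markers of the HEK293T line were expressed, and in MUT 4 of them rose and 1 fell. The 8 markers of blood, endothelial, liver, pancreatic and pluripotent cells were all under the minimum count, with HBB and INS at 0 in every library. The column headers of the WT libraries name a sequencing pool that those of MUT and SWP do not, so that pool and line cannot be told apart in comparisons with WT.

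The protein-coding genes of proximal 13q were lower in MUT than in WT as a group. Their median log2 fold change was -0.54, or 68.6% of the WT level, against 0.01 over all protein-coding genes tested, and 74 of 83 were below 0. Of these 83 genes, 40 fell and 3 rose, a gene being called when its log2 fold change exceeded 0.5 in size and its limma adjusted p was below 0.05. That is 48.2% called lower, against 10.2% of all protein-coding genes tested. With pseudogenes and lncRNA genes included, 48 of 136 members were called lower and 5 higher, against 10.1% called lower and 11.3% called higher over all genes, and the median was -0.39. When every library was scaled to the same total, 40 members were lower and 5 higher, and the calls over all genes shifted from 2111 lower and 2365 higher to 1600 lower and 2874 higher. Over the 53 members that overlap no other annotated gene the median was -0.19, with 15 lower and 4 higher, and over the 32 protein-coding genes among them it was -0.51, with 15 lower and 2 higher. In RNA from a population of cells, a smaller number of cells that express a gene and less RNA per cell cannot be told apart. The number of gene copies in these lines was not tested here.

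The fall was alike in each MUT library. Taking for each gene the difference from its WT mean, the median over the 83 protein-coding members was -0.506, -0.524 and -0.570 in the 3 MUT libraries. In WT it was 0.029, 0.033 and -0.057, and in SWP -0.027, -0.051 and -0.059. The MUT libraries thus lay apart from all others, whereas SWP and WT overlapped. Summed over all members, the counts were 340473, 325192 and 322194 in WT and 227337, 221442 and 225403 in MUT. This is 0.420% to 0.432% of all counts of tested genes in WT, 0.303% to 0.308% in MUT and 0.411% to 0.433% in SWP.

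**Figure D1:**
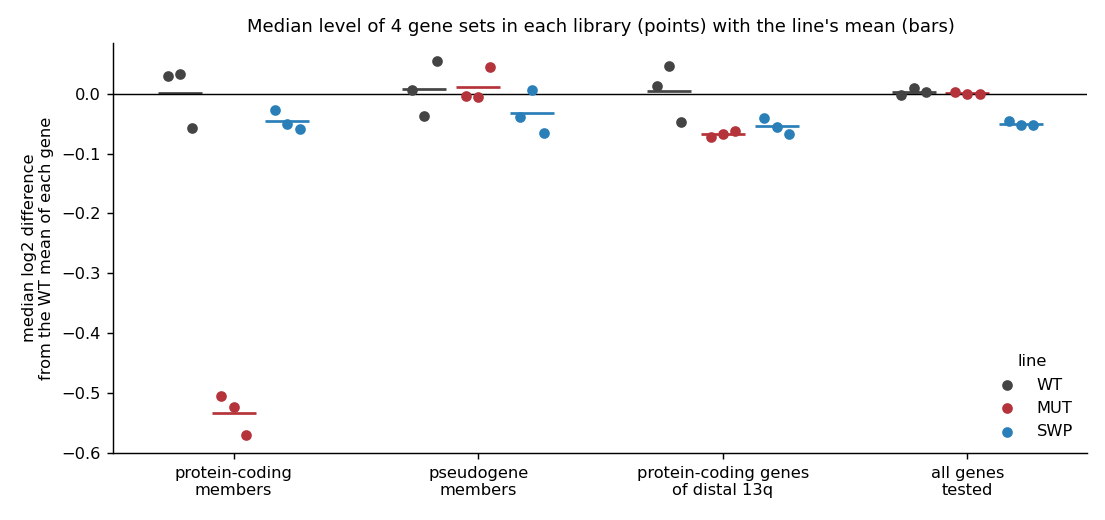
Each point is 1 library, and its height is the median, over the genes of a set, of the log2 difference from the WT mean of each gene; bars mark the mean of the 3 libraries of a line. The protein-coding members sit between -0.570 and -0.506 in MUT and within 0.06 of 0 in WT and SWP, while pseudogene members, protein-coding genes of distal 13q (from 60 Mb on) and all tested genes sit within 0.08 of 0 in every library.

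All 52 protein-coding members with a mean count of at least 1000 had a lower mean in MUT, with a median of -0.59, and 31 of them (59.6%) were called lower and none higher, against 9.07% called lower over all protein-coding genes at that level. In 48 of them (92.3%) the 3 MUT libraries lay below the 3 WT libraries, against 32.2% of all protein-coding genes at that level. Over all members this held for 73, or 53.7%, against 26.4% of all genes tested. Members with lower counts were more scattered: among the 31 protein-coding members with a mean under 1000, 9 fell and 3 rose, and their log2 fold changes ran from -3.16 to 1.18.

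**Figure D2:**
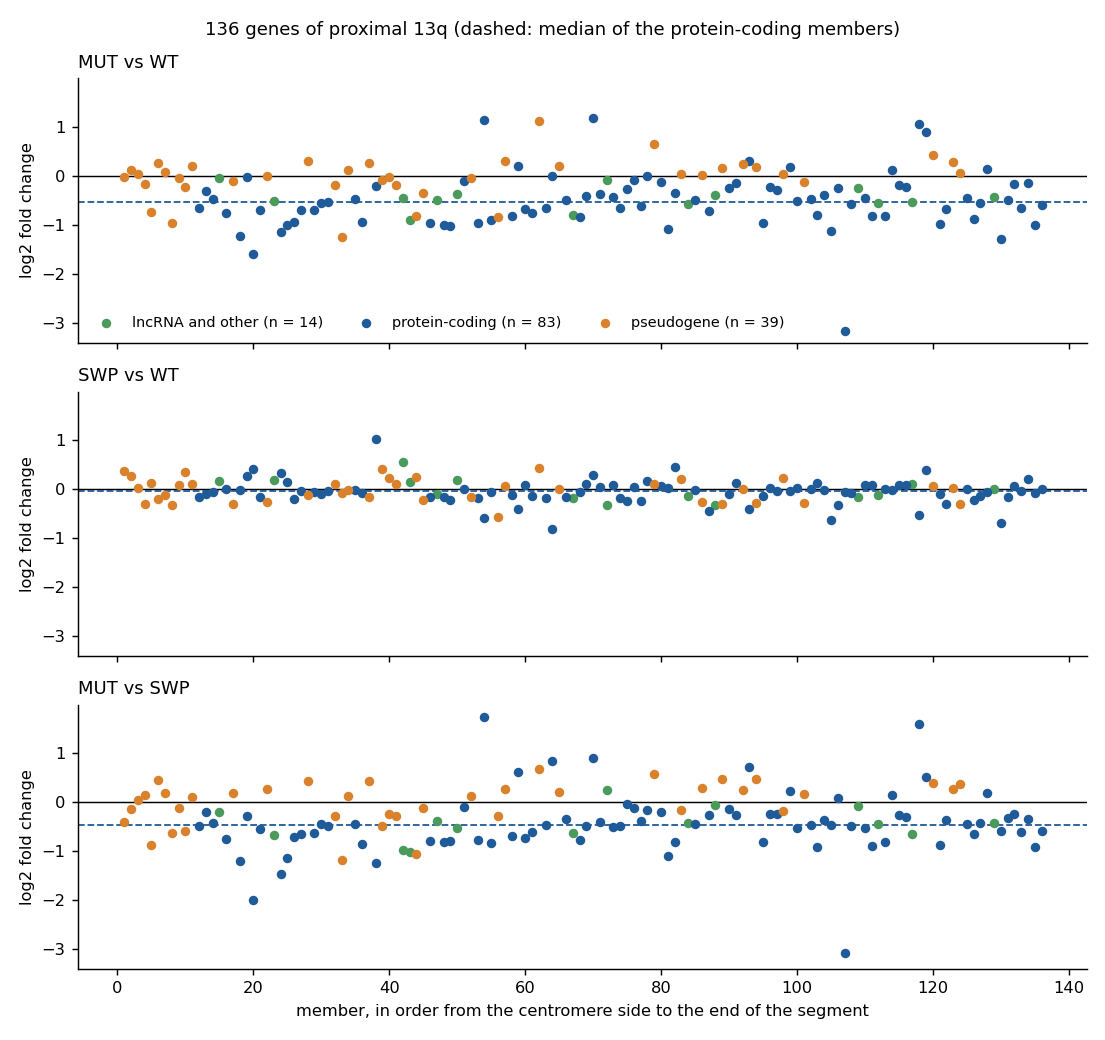
Each point is 1 of the 136 members, placed in its order from the centromere side, and its height is the log2 fold change in MUT vs WT, SWP vs WT and MUT vs SWP, coloured by gene class; the dashed line is the median of the protein-coding members. In MUT vs WT that median lies at -0.54, with most protein-coding members below 0 and pseudogenes around 0, and in SWP vs WT nearly all members lie near 0.

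The 6 members with the highest mean counts were HSPH1, SLC7A1, HMGB1, GTF3A, PABPC3 and SPART. HSPH1, a large chaperone of the HSP110 family, had 31511, 16853 and 21209 counts in WT, 14378, 12239 and 12086 in MUT and 33343, 20380 and 21241 in SWP. Each MUT library lay below each WT library, although WT itself spread widely. Its log2 fold change in MUT was -0.80 (SE 0.22, limma adjusted p = 0.0144), and without MUT replicate 3 the adjusted p was 0.05, no longer under the threshold. SLC7A1, the CAT1 carrier of arginine and lysine, had 19852, 29504 and 25961 counts in WT and 11513, 12214 and 14798 in MUT. It fell to 51.2% of WT (log2 fold change -0.96, SE 0.14, limma adjusted p = 0.000422), and its SWP libraries, with 20330, 21895 and 25730, lay within the WT range.

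HMGB1, an abundant chromatin protein that bends DNA, had 21046, 17926 and 20210 counts in WT, 13859, 14076 and 13267 in MUT and 22088, 19953 and 18202 in SWP. The MUT libraries were lower than the other 6. Its log2 fold change of -0.52 was close to the threshold of 0.5, and it was no longer called with equal totals (-0.44), with equal upper quartiles (-0.48), without WT replicate 1 (-0.47) or without MUT replicate 3 (-0.49). GTF3A, the zinc finger factor TFIIIA that RNA polymerase III needs for 5S rRNA, had 13008, 11905 and 13004 counts in WT and 7771, 7830 and 8329 in MUT. Its fall of 0.66 on the log2 scale (SE 0.07, limma adjusted p = 2.47e-05) left no overlap between the lines. SWP, with 11799, 10801 and 10972, lay just below WT and was not called.

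PABPC3, an intronless relative of the poly(A)-binding protein PABPC1, had 11114, 15265 and 11929 counts in WT, 6750, 6979 and 7695 in MUT and 9366, 11946 and 13744 in SWP. It fell by 0.83 on the log2 scale (SE 0.14, limma adjusted p = 0.000961). PABPC1 itself, on chromosome 8, had a mean of 96125 in WT and 44124 in MUT, a change of -1.12. Because the copies are alike in sequence, reads may be shared between them, and the value of PABPC3 is uncertain. SPART, a protein of endosomes and lipid droplets, was not called: it had 11674, 9234 and 9981 counts in WT and 8927, 8687 and 8663 in MUT, or -0.23 on the log2 scale (limma adjusted p = 0.0786). For a single gene with 3 libraries against 3, the smallest p of an exact two-sided permutation test is 0.1, which HSPH1, SLC7A1, HMGB1, GTF3A, PABPC3 and SPART all reached in MUT vs WT.

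Among called members with a mean of at least 50, the largest falls were in N4BP2L1, CRYL1, MIPEPP3 and GJA3. The stretches of 250 bases just before the RefSeq start of N4BP2L1 and CRYL1 are printed here as the promoters of the 2 genes with the deepest loss, together with those of SLC7A1, the most abundant gene that fell by more than 0.9, and ATP12A, which rose most among called members with a mean of at least 50. They are from RefSeq on GRCh38.p14, 5′ to 3′ on the strand of each gene. Capitals mark a G4 motif, defined as 4 runs of GGG separated by 1 to 7 bases, or the same on the opposite strand, where it reads as runs of CCC.

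N4BP2L1, chr13:32428131-32428380, minus strand: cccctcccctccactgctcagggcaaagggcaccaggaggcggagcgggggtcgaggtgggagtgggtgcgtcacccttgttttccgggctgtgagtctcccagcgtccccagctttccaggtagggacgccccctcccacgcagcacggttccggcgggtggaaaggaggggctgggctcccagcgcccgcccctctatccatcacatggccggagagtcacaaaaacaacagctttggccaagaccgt
CRYL1, chr13:20525858-20526107, minus strand: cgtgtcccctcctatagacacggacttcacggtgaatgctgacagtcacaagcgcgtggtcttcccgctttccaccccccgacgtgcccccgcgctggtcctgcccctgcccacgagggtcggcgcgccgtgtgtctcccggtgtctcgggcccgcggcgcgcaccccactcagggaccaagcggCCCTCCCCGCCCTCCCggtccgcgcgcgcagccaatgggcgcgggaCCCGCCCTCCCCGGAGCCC
SLC7A1, chr13:29595689-29595938, minus strand: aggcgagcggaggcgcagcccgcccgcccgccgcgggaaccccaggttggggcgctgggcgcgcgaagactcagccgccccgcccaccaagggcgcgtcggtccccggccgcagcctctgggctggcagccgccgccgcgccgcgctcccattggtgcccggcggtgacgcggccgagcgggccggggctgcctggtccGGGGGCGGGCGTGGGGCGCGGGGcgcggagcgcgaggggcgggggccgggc
ATP12A, chr13:24680158-24680407, plus strand: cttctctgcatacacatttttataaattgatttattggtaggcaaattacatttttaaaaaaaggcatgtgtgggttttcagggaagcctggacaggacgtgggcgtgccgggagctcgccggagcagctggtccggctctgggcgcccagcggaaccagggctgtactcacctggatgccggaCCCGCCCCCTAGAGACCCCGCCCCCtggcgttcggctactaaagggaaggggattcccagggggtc

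N4BP2L1 had no such motif, CRYL1 had 2 on the opposite strand, SLC7A1 had 1 on its own strand and ATP12A had 1 on the opposite strand. N4BP2L1 (ENSG00000139597) had 80, 114 and 87.6 counts in WT, 10.2, 10.7 and 7.79 in MUT and 49.3, 120 and 115 in SWP. It thus fell to 10.2% of WT in MUT, which is -3.16 on the log2 scale (SE 0.32, limma adjusted p = 2.82e-05). Its neighbour N4BP2L2 fell to a lesser extent, by 0.57 on the log2 scale, and with equal totals its change of -0.50 was no longer called. CRYL1, a gulonate dehydrogenase also known as lambda-crystallin, had 402, 797 and 608 counts in WT, 182, 192 and 200 in MUT and 488, 1056 and 867 in SWP, so that MUT lay below all other libraries (log2 fold change -1.60, SE 0.28, limma adjusted p = 0.00104). GJA3, the gap junction protein connexin 46, had 1069, 1157 and 995 counts in WT, 430, 459 and 486 in MUT and 846, 1185 and 1168 in SWP. Its log2 fold change was -1.23 (SE 0.13), again with no overlap between MUT and the other lines. MIPEPP3, a transcribed pseudogene of the peptidase gene MIPEP, had 74.8, 87.6 and 90.5 counts in WT and 30.5, 35.0 and 39.0 in MUT (-1.25).

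**Figure D3:**
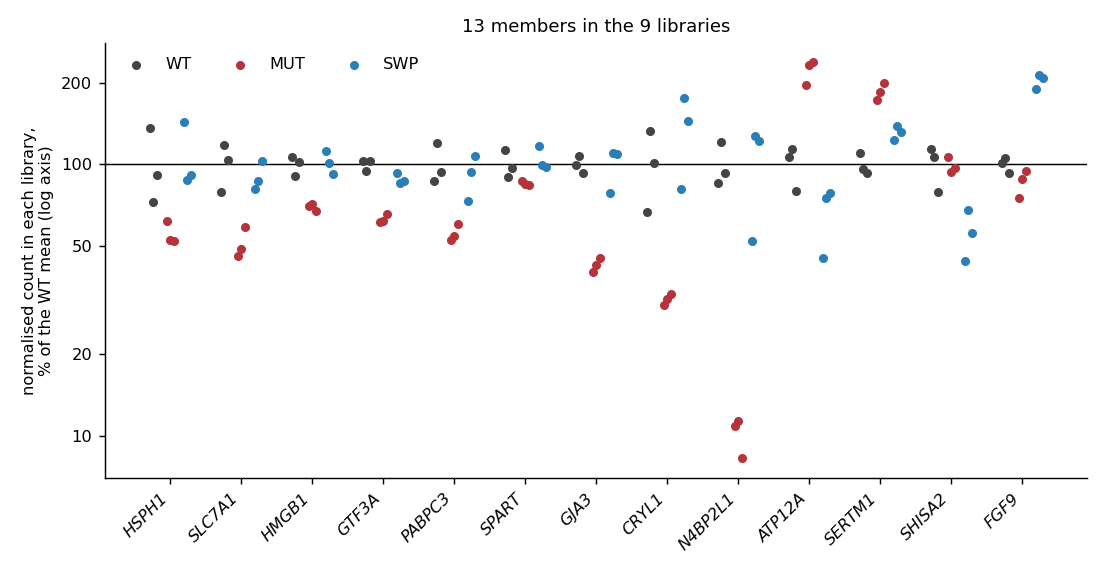
Normalised counts of 13 members in the 9 libraries, each as a percentage of the WT mean of the gene on a log axis, with 3 points per line. MUT lies below WT for the genes from HSPH1 to N4BP2L1, with N4BP2L1 near 10% of WT, above WT for ATP12A and SERTM1, and within or near the WT range for SHISA2 and FGF9, where SWP stands apart.

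Of 9 members with roles in chromosome segregation, cilia and the cell cycle, 6 fell in MUT and none rose. This and the counts of the following role groups stand beside 48.2% called lower over the protein-coding members and 10.2% over all protein-coding genes, and no group was tested against the others. CENPJ, a centriole assembly protein, had 2765, 2609 and 2372 counts in WT and 1475, 1482 and 1195 in MUT (-0.90, SE 0.11). CDK8, the kinase of the Mediator complex, had 3080, 2847 and 2979 in WT and 1750, 1592 and 1619 in MUT (-0.84, SE 0.07, limma adjusted p = 7.44e-06). The GTPase-activating protein STARD13 changed by -0.82, the Hippo pathway kinase LATS2 by -0.71, the intraflagellar transport protein IFT88 by -0.71 and the kinetochore protein SKA3 by -0.56, the last being -0.49 and not called with equal totals. PDS5B, a regulator of cohesin, passed the adjusted p but not the fold (-0.45, adjusted p = 0.000626 by limma). CCNA1, a cyclin of germ cells, was scarce, with 20.5, 6.73 and 15.4 counts in WT and 21.3, 42.8 and 24.4 in MUT, and its difference of 1.06 was not called.

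Chromatin and transcription proteins formed the largest group, with 9 of 14 tested genes lower in MUT and none higher. RFXAP, a subunit of the RFX complex of MHC class II promoters, had 1946, 2174 and 2244 counts in WT, 1001, 1150 and 1053 in MUT and 1824, 2056 and 2038 in SWP, a fall of 0.99 on the log2 scale (SE 0.09, limma adjusted p = 1.13e-05). The zinc finger protein ZMYM2 changed by -0.76, SAP18 of the SIN3 corepressor by -0.69, the BMP effector SMAD9 by -0.67, MPHOSPH8 of the HUSH silencing complex by -0.66 and POLR1D, a subunit that RNA polymerases I and III share, by -0.62. SUPT20H of the SAGA coactivator changed by -0.56, which became -0.48 with equal totals and -0.49 without MUT replicate 3 and was then not called. The homeodomain factors CDX2 and PDX1 did not follow, nor did MAB21L1, a gene of eye and brain development. CDX2 had 3144, 2542 and 2706 counts in WT and 2598, 2471 and 2545 in MUT (-0.13). PDX1 differed by -0.0097 and MAB21L1 by 0.11. None of these was called.

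In the group of RNA decay, export and nuclear transport, 4 of 5 genes fell in MUT. XPO4, a nuclear export receptor, had 5663, 5045 and 4516 counts in WT and 2779, 2383 and 2787 in MUT (-0.94, SE 0.11). EXOSC8, a ring subunit of the RNA exosome, had 6300, 7247 and 7475 in WT and 3701, 3975 and 3733 in MUT (-0.88, SE 0.08, limma adjusted p = 1.87e-05). NUP58 of the central channel of the nuclear pore changed by -0.77, beside PABPC3. PAN3, the adaptor of a poly(A) nuclease, had 3481, 3530 and 3200 in WT and 2491, 2381 and 2404 in MUT. These did not overlap, yet its log2 fold change of -0.49 stayed inside the fold threshold (limma adjusted p = 0.000179).

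All 4 genes of mitochondrial proteins were below WT in MUT, and 3 were called. MIPEP, a peptidase that trims proteins imported into the matrix, had 2956, 2820 and 2938 counts in WT, 1414, 1480 and 1384 in MUT and 2534, 2540 and 2383 in SWP. Its log2 fold change in MUT, -1.03 (SE 0.07), had the smallest adjusted p of all members (limma, 1.47e-06). MICU2, a gatekeeper of the mitochondrial calcium uniporter, changed by -0.95 and the mitochondrial ribosomal protein MRPL57 by -0.54, the latter not called with equal totals (-0.47), without WT replicate 3 (-0.49) or without MUT replicate 1 (-0.49). MTIF3, an initiation factor of mitochondrial translation, differed by -0.28 and was not called.

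Among 8 genes of protein folding, ubiquitin-like tags and proteasome assembly, all had a negative log2 fold change in MUT and 2 were called, HSPH1 among them. UFM1, a ubiquitin-like modifier, had 4573, 4100 and 4357 in WT and 3241, 3186 and 2854 in MUT, a difference of -0.49 that passed the adjusted p alone (0.00085 by limma). The proteasome maturation factor POMP differed by -0.25, with overlapping libraries.

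Of 9 genes of membrane transport, glycosylation and trafficking, SLC7A1, the phosphoinositide phosphatase MTMR6 (-0.67) and the Golgi tethering subunit COG6 (-0.60) fell, and the other 6 were below 0 without a call. ALG5, which makes a sugar donor for N-glycosylation, had 2495, 2413 and 2729 counts in WT and 1787, 1910 and 1848 in MUT (-0.46). Receptors, ligands and signalling proteins were called in 3 of 12 cases: the cytokine IL17D (-1.15), the TNF receptor family member TNFRSF19 (-1.0) and the VEGF receptor FLT1 (-0.72). TNFRSF19 had 1407, 1519 and 1495 counts in WT and 630, 769 and 831 in MUT, while IL17D was scarcer, with 155, 106 and 139 against 55.5, 66.1 and 54.6. Of 5 neuronal and cytoskeletal genes, NBEA (-0.82), a neuronal trafficking protein, and FRY (-1.12) fell and SERTM1 rose. Of 3 genes of adhesion and junctions, GJA3 fell, whereas the connexin 26 gene GJB2 had 178, 210 and 179 counts in WT and 177, 194 and 181 in MUT (-0.03). GJA3 and GJB2 are neighbours, and MUT thus lay below WT for the first and overlapped it for the second.

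The complexes to which several members belong were also followed at their genes elsewhere in the genome. Of 49 tested partner genes, 9 were called lower in MUT and none higher, with a median of -0.12, where the shares over all genes were 10.1% and 11.3%. Subunits of the SKA complex and the outer kinetochore, the partners of SKA3, ranged from 0.05 to 0.26 in 6 genes, and none was called. Of 10 exosome partners of EXOSC8, EXOSC1 on chromosome 10 changed by -0.74 and EXOSC10 on chromosome 1 by -0.51, and the other 8 were not called. Cohesin subunits and regulators, the partners of PDS5B, had 2 of 8 called, RAD21 on chromosome 8 (-0.74) and SMC3 on chromosome 10 (-0.62). CCNC, the cyclin that binds CDK8, had a log2 fold change of 0.36 without a call, whereas MED12 of the same module changed by -0.76. In the UFM1 pathway 1 of 6 partners was called, CDK5RAP3 (-0.75), in proteasome assembly 1 of 5, PSMG4 (-0.97), and among polymerase subunits 2 of 6, POLR1E (-0.73) and POLR3A (-0.50). Neither RFX partner of RFXAP was called.

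In MUT 5 members rose, 3 protein-coding genes and 2 pseudogenes. ATP12A, a proton-potassium pump, had 56.4, 60.6 and 42.4 counts in WT, 104, 123 and 126 in MUT and 24.1, 40.1 and 41.5 in SWP. It was thus highest in MUT and lowest in SWP, with no overlap between the lines, and its log2 fold change in MUT was 1.14 (SE 0.23, limma adjusted p = 0.00282). SERTM1, a small transmembrane protein, had 274, 239 and 231 counts in WT, 427, 460 and 494 in MUT and 304, 344 and 325 in SWP (0.89 in MUT, SE 0.11). GPR12, an orphan receptor, rose from 13.3, 13.5 and 14.4 counts to 29.6, 30.1 and 38.0 (1.18), but without MUT replicate 3 its adjusted p was 0.0729 by limma. ELOBP1 had 384, 389 and 405 counts in WT, 799, 845 and 899 in MUT and 382, 416 and 925 in SWP, where 1 library reached the MUT level. ATP5F1EP2 had 1656, 1574 and 1767 in WT and 2644, 2503 and 2668 in MUT (0.65).

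The 35 processed pseudogenes did not share the lower level of the protein-coding members, with a median log2 fold change of 0.04 in MUT. The 4 unprocessed ones, which are duplicated gene copies, had a median of -0.91, with PARP4P2, MIPEPP3 and TPTE2P1 called lower and PHF2P2 at 0.25. Over both kinds the median was 0.04, with 5 of 39 called lower (12.8%) and 2 higher, against 8.63% called lower over all pseudogenes tested. Of 34 that are named after a tested parent gene, 32 have the parent outside the segment. Over these 32 the median was 0.04 for the pseudogenes and -0.01 for the parents. Over all 34 pairs, the mean count of the parent was a median of 21.6 times that of the pseudogene. EIF4A1P5 (2731 against 802) and CYP51A1P2 (2333 against 1557) had higher mean counts than their parents. The 2 pseudogenes with a parent on the segment were both called: PARP4P2 changed by -0.97 beside PARP4 (-0.96), and MIPEPP3 by -1.25 beside MIPEP (-1.03). ELOBP1 differed from its parent ELOB, on chromosome 16, by rising 1.11 where ELOB had -0.131. Where a pseudogene and its parent are nearly identical, the reads could be split between them, so that values of processed pseudogenes are uncertain. RHOT1P3 (-0.75) and its parent RHOT1 on chromosome 17 (-0.62) both fell, though RHOT1P3 was no longer called without WT replicate 3 (-0.54, adjusted p = 0.0896 by limma) or without MUT replicate 3 (-0.62, adjusted p = 0.0886). NUS1P2 (-0.82) fell as well, while NUS1 on chromosome 6 had -0.166. TPTE2P1 fell by 0.85, and was not called without WT replicate 2 (adjusted p = 0.0697 by limma) or without MUT replicate 1 (adjusted p = 0.077). All 14 lncRNA and other genes had negative values in MUT, with a median of -0.47 and 3 called, though none of these calls held with equal totals.

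**Figure D4:**
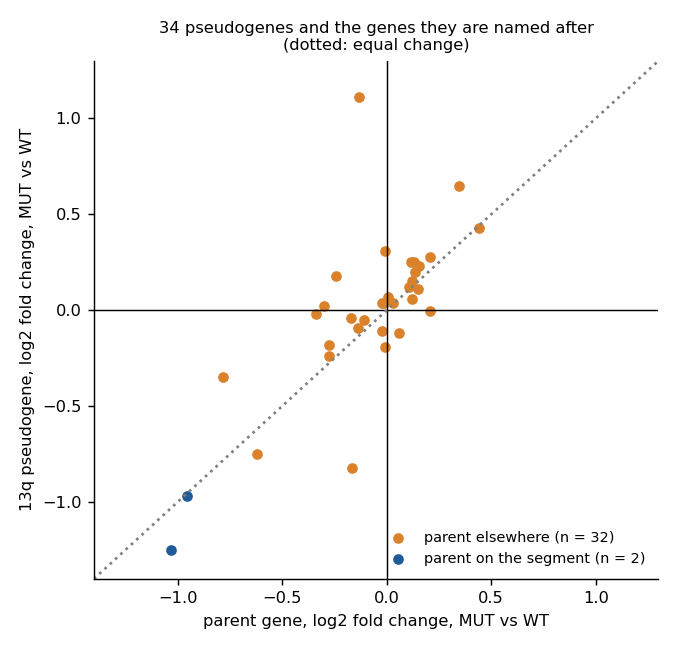
Each of 34 pseudogenes of the segment is plotted by its log2 fold change in MUT vs WT (vertical) against that of the gene it is named after (horizontal), and the dotted line marks equal change. The 2 pseudogenes whose parent lies on the segment are at the lower left, most of the other 32 lie around 0 on both axes, and ELOBP1 stands alone at 1.11.

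Unlike PABPC3, the retrogenes CSNK1A1L and UBE2L5, also annotated as protein-coding, were not called. CSNK1A1L, an intronless relative of the kinase CSNK1A1 of chromosome 5, had 1000, 871 and 993 counts in WT and 1021, 1033 and 1078 in MUT (0.13), and CSNK1A1 had 0.08. UBE2L5, a relative of UBE2L3 on chromosome 22, had 631, 510 and 614 counts in WT and 679, 626 and 681 in MUT (0.18), and UBE2L3 had 0.21.

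In 4 places a pair of protein-coding members starts head to head within 1000 bases, which places both genes next to the same short stretch of DNA. These stretches are printed from hg38 on the plus strand, from the base after the GENCODE start of the minus-strand gene to the base before that of its neighbour, since they show what the 2 genes of a pair have in common. None holds the G4 motif, so that all bases are in lower case, but the longer 300-base promoters of LNX2 and POLR1D, which reach past this stretch, hold 1 each.

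SKA3/MRPL57, chr13:21176553-21176657: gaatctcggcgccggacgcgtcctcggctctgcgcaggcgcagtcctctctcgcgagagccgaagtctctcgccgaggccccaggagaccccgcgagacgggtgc
LNX2/POLR1D, chr13:27620530-27620741: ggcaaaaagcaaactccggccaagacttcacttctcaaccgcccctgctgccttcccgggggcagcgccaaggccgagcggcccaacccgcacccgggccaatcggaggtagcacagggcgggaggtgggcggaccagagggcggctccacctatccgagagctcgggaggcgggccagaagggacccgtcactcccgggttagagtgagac
HMGB1/USPL1, chr13:30617598-30617692: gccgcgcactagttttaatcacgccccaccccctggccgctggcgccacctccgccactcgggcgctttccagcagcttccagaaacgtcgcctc
PROSER1/NHLRC3, chr13:39038090-39038305: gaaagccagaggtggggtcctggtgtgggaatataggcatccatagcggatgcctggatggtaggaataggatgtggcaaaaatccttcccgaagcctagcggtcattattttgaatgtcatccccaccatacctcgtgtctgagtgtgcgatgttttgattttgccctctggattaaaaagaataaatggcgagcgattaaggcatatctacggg

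SKA3 and MRPL57, whose starts are 106 bases apart, changed by -0.56 and -0.54 in MUT. HMGB1 and the SUMO protease gene USPL1, 96 bases apart, changed by -0.52 and -0.48, the second without a call. The other two pairs had unlike values. LNX2, a ubiquitin ligase of the Notch pathway, had 2334, 2217 and 2153 counts in WT and 2302, 2007 and 1990 in MUT (-0.09, SE 0.08), whereas POLR1D, 213 bases away, had 9961, 12045 and 11756 in WT and 7219, 7208 and 7415 in MUT (-0.62, SE 0.09). PROSER1, 217 bases from NHLRC3, had 10650, 10633 and 9139 counts in WT and 6376, 6108 and 6815 in MUT (-0.65), and NHLRC3 had 1286, 1402 and 1262 against 1197, 1211 and 1157 (-0.15), which was not called. The difference between the genes of a pair was not tested.

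In SWP the segment was close to WT. The median log2 fold change of the members was -0.04, against -0.06 over all genes tested, and 1 member was lower and 1 higher, or 0.735% in each direction against 2.98% and 2.15% of all genes. The member that fell was SHISA2, a protein that holds back the maturation of FGF and WNT receptors. It had 387, 361 and 269 counts in WT, 360, 318 and 328 in MUT and 150, 231 and 190 in SWP, so that SWP alone lay below WT (-0.83, SE 0.18, limma adjusted p = 0.0118). FGF9, a secreted fibroblast growth factor, had 220, 230 and 202 counts in WT, 164, 192 and 206 in MUT and 414, 464 and 452 in SWP. It rose in SWP by 1.02 on the log2 scale (SE 0.12, limma adjusted p = 0.000308) with no overlap, and its change in MUT, -0.22, was not called.

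MUT was also compared with SWP, the line whose MYC promoter has a foreign G4 motif. The fold changes of this comparison do not involve the WT libraries but share the MUT libraries with MUT vs WT. Its calls do draw on WT, since the fit to all 9 libraries gave the spread. The median log2 fold change of the members was -0.38 against 0.04 over all genes, and 44 were called lower and 6 higher, against 8.31% and 12.3% of all genes. For the protein-coding members alone the median was -0.48, with 72 of 83 below 0. Among members with a mean of at least 50, the largest falls were those of N4BP2L1 (-3.09), CRYL1 (-2.0), IL17D (-1.47) and FGF9 (-1.24). At the same minimum, the largest rises were those of ATP12A (1.74), SHISA2 (0.83), MTUS2 (0.71) and ATP5F1EP2 (0.56), the last reaching 0.47 and no call without SWP replicate 1. The scarce CCNA1 was also called higher (1.59), but not without MUT replicate 2 (adjusted p = 0.122 by limma), MUT replicate 3 (0.0619) or SWP replicate 1 (0.0809). MTUS2, a microtubule-associated protein, had 95.2, 83.6 and 80.9 counts in MUT, 47.0, 57.9 and 53.0 in SWP and 61.5, 84.2 and 67.4 in WT, so that SWP lay below both other lines.

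Along the chromosome, the lower level in MUT did not end with the segment. Windows of 5 Mb were taken over all tested protein-coding genes, so that RPL21 and RFC3, left out of the members by symbol, count here. The median was -0.56 from 15 to 20 Mb (4 genes), -0.90 from 20 to 25 Mb (21 genes), -0.43 from 25 to 30 Mb, -0.50 from 30 to 35 Mb and -0.48 from 35 to 40 Mb. Beyond the segment it was -0.44 from 40 to 45 Mb, -0.48 from 45 to 50 Mb and -0.22 from 50 to 55 Mb. The last members, LHFPL6 and COG6, changed by -1.0 and -0.60, and the first tested genes past 40 Mb, LINC00598 and FOXO1, had -0.42 and -0.12 without a call. From 40 to 60 Mb, the 69 protein-coding genes had a median of -0.38, with 62 below 0, 22 called lower (31.9%) and 0 higher. From 60 Mb on, the 92 protein-coding genes had a median of -0.08, with 11 called lower (12%) and 8 higher. Over all protein-coding genes tested, 10.2% were called lower and 1755 of 13853 were called higher. Of 465 windows of the genome that held at least 10 protein-coding genes, 18 had a median of -0.5 or less in MUT vs WT. Of these 18, 2 lay in the segment, and others lay on chromosomes 1, 6, 8 and 10. The window from 20 to 25 Mb had the third lowest median, after 2 windows of chromosome 6. In MUT vs SWP 13 windows were at -0.5 or less, 1 of them in the segment. In SWP vs WT no window was at -0.5 or less, and the medians of the 465 windows ran from -0.41 to 0.45.

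**Figure D5:**
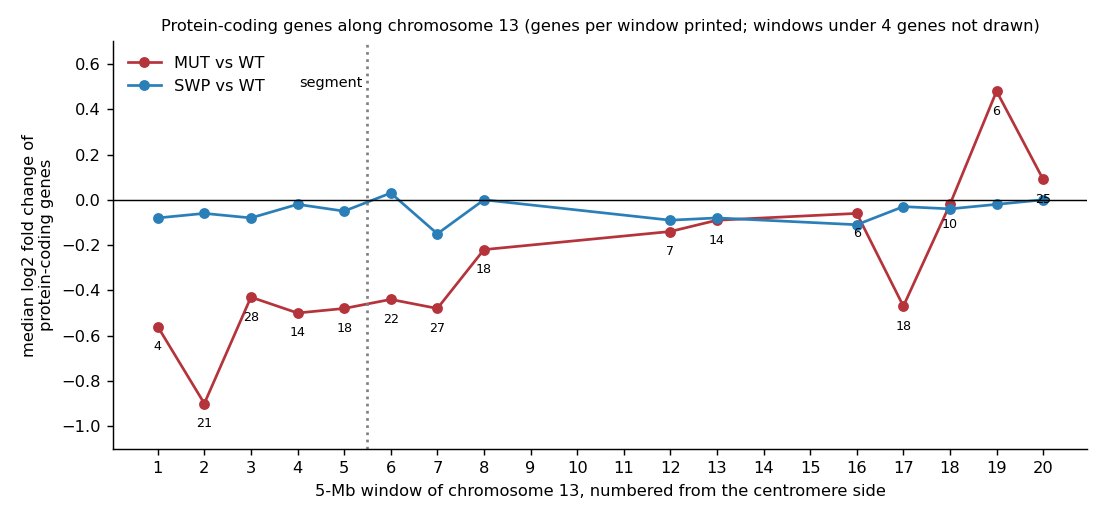
Median log2 fold change of the protein-coding genes in each 5-Mb window of chromosome 13 with at least 4 such genes, in order from the centromere side, for MUT vs WT and SWP vs WT, with the number of genes beside each MUT point; the dotted line is the end of the segment. MUT is at or below -0.43 in the first 7 windows, at -0.22 in the eighth and, in the windows drawn farther along, within 0.15 of 0 except for -0.47 and 0.48 in the seventeenth and nineteenth, while SWP in the windows drawn is nowhere farther than 0.15 from 0. Windows are numbered with those of fewer genes included, which are not drawn.

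The window from 20 to 25 Mb holds several of the deepest values. EEF1AKMT1, a methyltransferase of translation elongation factor 1A, had 1020, 666 and 887 counts in WT, 442, 409 and 413 in MUT and 1153, 860 and 811 in SWP (-1.0 in MUT, SE 0.16). PARP4, a poly(ADP-ribose) polymerase of vault particles, had 4114, 4180 and 3811 in WT and 2141, 2099 and 2000 in MUT (-0.96, SE 0.07, limma adjusted p = 2.73e-06). With GJA3, CRYL1, IL17D, XPO4, MICU2, TNFRSF19, MIPEP and CENPJ these genes lie among others of the same window with smaller values, such as ZDHHC20, a palmitoyltransferase, with 6176, 5551 and 5363 in WT and 4238, 4019 and 4045 in MUT (-0.47), and SPATA13, a guanine nucleotide exchange factor, with 842, 740 and 632 against 644, 700 and 696 (-0.11). Neither ZDHHC20 nor SPATA13 was called.

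Promoters with and without a G4 motif were set side by side because the edit of the study removes such a motif at MYC. A RefSeq promoter, from 250 bases before to 50 after the start, was at hand for 75 members, 70 of them protein-coding, taking the entry nearest to the GENCODE start. The motif was in 22 of those 70, or 31.4%, against 24.9% of all 35116 promoters of that length. The median GC content was 67.2% against 58.7%. These sets are unlike, since the larger one keeps every entry of a gene and is not limited to protein-coding genes. With the motif, the median log2 fold change in MUT vs WT was -0.59. Of these 22 genes, 20 were below 0, 10 were called lower and 2 higher. Those without it had -0.49, with 42 of 48 below 0, 22 called lower and 1 higher. Called lower were 48.2% of all protein-coding members and 10.2% of the 13853 protein-coding genes tested, of which 1755 were called higher. In MUT vs SWP the order of the medians was the other way. With the motif the median was -0.41, with 5 of 22 called lower and 1 higher. Without it the median was -0.49, with 22 of 48 called lower and 4 higher. Here 42.2% of all protein-coding members and 8.45% of all protein-coding genes tested were called lower, and 1979 of the latter higher. In SWP vs WT the medians were -0.12 with the motif and -0.04 without it. A motif match describes these letters only and does not show a folded structure, and the difference between the promoters with and without it was not tested.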

How the data were processed

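RNA-seq was used here from 9 of 213 listed samples, and the other assays were not analysed here. Groups came from the sample labels. The authors aligned poly(A)-selected, directional reads to hg38 with bwa mem 0.7.17, which does not join reads across introns, sorted with SAMtools 1.15.1, marked duplicates with Picard 2.18.7 and counted reads per gene with GENCODE release 42. The counting tool and its use of strand are not given in the sources used here, so that reads of overlapping genes on opposite strands may not be told apart, and 83 members overlap another gene. The deposited values are signal values, never negative, in which the authors divided each gene's count by a size factor of DESeq2 1.38.0, and dividing by the step between low values gave whole reads for 100% of values. These reads served edgeR 4.0.16 and DESeq2 1.42.0 as alternatives.

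From the deposited values, limma 3.58.1 in R 4.3.3 (lmFit, eBayes with a trend) was fitted to log2(normalised count + 1) of all 9 libraries over the 20884 genes with a mean of at least 10, with Benjamini-Hochberg adjustment. Fold changes of low genes are understated on this scale. Symbols and positions came from GENCODE release 44 on hg38, in which 57754 of 58336 listed identifiers were found. All 106 RefSeq promoter entries of the members read back identically from hg38. The named genes were MYC, the 6 members with the highest mean, the 4 largest rises and falls per comparison among called members with a mean of at least 50, the role and partner lists, and the edges of the rule. Members at other places (GPR12, PARP4, EEF1AKMT1, N4BP2L2 and the genes of pseudogene, retrogene and head-to-head comparisons) were picked after their values were seen. The members and lists were chosen with earlier results of these data known. Some members are not reported here by name. The scripts were tested on simulated data.

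Replicate numbers are shared by the lines. Deviations from the line means of libraries with the same number correlated at 0.049 to 0.328 in MUT vs WT, 0.102 to 0.555 in SWP vs WT and 0.232 to 0.333 in MUT vs SWP. By the rule of every pair exceeding 0.1, the numbers pair both comparisons with SWP, as a hint from the data and not from the labels. The hint is weak in SWP vs WT. There, unlike pairs of numbers 2 and 3 correlated at 0.166 and 0.263, above the 0.102 of the pair numbered 3, while unlike pairs with number 1 ran from -0.477 to -0.192. Alternatives were other pseudocounts, minimum counts, scalings, models, segment ends and member subsets, and the omission of each library.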

Additional observations from a re-analysis of the deposited data

How the results depend on the processing

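The median log2 fold change of the members in MUT vs WT, MUT vs SWP and SWP vs WT, and the numbers of calls, were recomputed under each alternative. In MUT vs WT the median stayed negative in all of them: it was -0.34 with a pseudocount of 10, -0.28 with all genes of any count, -0.44 with a minimum mean of 50, -0.32 with equal totals, -0.36 with equal upper quartiles, -0.54 over protein-coding members, -0.19 over the 53 members that overlap no other gene and -0.37 with the segment ending at 30 Mb. Leaving out each library gave -0.42 to -0.36. In MUT vs SWP the corresponding values were -0.33, -0.27, -0.42 and -0.36 for the first 4 of these, -0.41 with edgeR, -0.42 with DESeq2, -0.48 over protein-coding members, -0.27 without overlapping genes, -0.36 with an end at 50 Mb and -0.40 to -0.34 without each library. In SWP vs WT the median lay on either side of 0: 0.0056 with equal totals, -0.011 with equal upper quartiles, -0.00013 with edgeR, -0.00092 with DESeq2, -0.013 without overlapping genes, and -0.059 to -0.019 without each library.

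The number of members called was 19 in MUT vs WT and 17 in MUT vs SWP among the 53 that overlap no other gene, and 81 in MUT vs WT and 5 in SWP vs WT with an end at 50 Mb, where 221 genes count as members. In SWP vs WT it was 4 with all genes of any count. By adjusted p alone, 77 members were called in MUT vs SWP and 9 in SWP vs WT, and 8021, 7944 and 2083 of all genes in MUT vs WT, MUT vs SWP and SWP vs WT. With a log2 fold change beyond 1, 11, 11 and 1 members and 1648, 1723 and 505 of all genes were called. The subsets hold fewer members than the full set, so that their counts cannot be set directly against its counts. The cause of the shifts was not tested.

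With the replicate number as a block, 56 members were called in MUT vs WT instead of 53, 3 instead of 2 in SWP vs WT (2 lower, 1 higher) and 53 instead of 50 in MUT vs SWP (45 lower, 8 higher). Over all genes, calls rose as well, from 4476 to 4970, from 1072 to 1464 and from 4309 to 4773 in the same order. The pairing ended no call of a single member in any comparison. Over the 3 comparisons, 82 calls of single members held under every alternative that refitted them, 23 were lost under at least 1, and none reversed. Scarce members were less certain: in MUT vs WT the SD of the log2 fold changes was 1.36 over the 10 protein-coding members with a mean under 100 and 0.27 over the 52 with at least 1000.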
